A study of Mus musculus with 10 samples.

Results

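Whole testis was set against a mixture of somatic organs in 4 of the 10 arrays of a study of gene expression in mouse meiosis, chosen by their sample titles. Whole testis came from C57BL/6 males aged 15 days and was measured by 1 array on each of 2 Affymetrix designs. The somatic mix came from C57BL/6 males of the same age and pooled 11 organs (skin, spleen, muscle, kidney, colon, intestine, stomach, liver, lung, heart and brain), again with 1 array on each design. The other 6 arrays hold 3 Percoll-enriched germ cell fractions, from spermatogonia at day 8, leptotene and zygotene spermatocytes at day 12 and pachytene spermatocytes at day 15, and are used below only to show where a gene had its signal. The sources used here do not say how many animals were pooled, in what proportions the organs were mixed, or whether the arrays of a group share 1 RNA preparation.

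The seminiferous tubules of a juvenile mouse hold Sertoli cells and germ cells that advance together in a first wave from spermatogonia through meiosis. By the age sampled here the leading cells of that wave are pachytene spermatocytes, which pair their chromosomes along the synaptonemal complex, silence transposons with piRNAs and begin to transcribe genes for the future sperm. Leydig cells, peritubular muscle-like cells, vessels and macrophages lie around the tubules. The pooled organs supply the reference expression of differentiated somatic cells, with each organ diluted by the others.

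The arrays of the 2 groups differed in ways that bear on every value below. Signals were scaled within each design, and a floor was set at 87.2 on the first design and at 47.0 on the second. On the first design 60.3% of probe sets lay above the floor in whole testis and 64.2% in the somatic mix, and on the second design 52.2% and 56.0%. The ratio of the 3′ to the 5′ control probe sets, which rises when RNA or labelled copies are short, set whole testis apart. For Gapdh, an enzyme of glycolysis, it was 4.33 and 3.75 in whole testis, against 1.21 and 1.18 in the somatic mix and 1.07 to 1.52 in the 3 fractions. For Actb, cytoplasmic actin, it was 5.22 and 6.57 in whole testis, against 1.88 and 2.30 in the somatic mix and 2.41 to 3.40 in the fractions. The bacterial hybridisation controls differed between the groups by 0.17 on average on the first design and by −0.41 on the second, on the log2 scale. The part of these gaps in any difference between whole testis and somatic mix was not tested. The whole testis arrays also carried transcripts of other organs, some of which were at background in all 3 germ cell fractions, as described further on.

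Of 18194 genes read from probe sets that map to 1 gene, 14992 were above the floor in at least 1 of the groups. A total of 11697 were above it in both, 1366 in whole testis alone and 1929 in the somatic mix alone. With 1 array per group on each design, a gene has a test only where the same probe set is on both designs, as for 100 probe sets described at the end. A gene was therefore called higher or lower in whole testis at a difference of 4-fold or more, which is 2 on the log2 scale. By that rule 1082 genes were higher in whole testis (7.22% of those measured) and 855 were lower (5.7%). The somatic mix was at the floor for 464 of the genes called higher, and whole testis was at the floor for 271 of those called lower. Differences of 16-fold or more were seen for 198 genes in the higher direction and 81 in the lower. The error of a log2 difference, taken from 100 probe sets present on both designs, was 0.29, which gives a 95% limit of 0.57. It includes a mean gap of 0.33 between the designs and measures only the spread between arrays, which may share 1 RNA preparation, so it may leave out the spread between animals. The 100 probe sets were all above the floor in both groups and are the same probes on both designs. The limit may therefore be too narrow for genes near the floor. Beyond that limit 29.0% of measured genes were higher in whole testis and 30.6% lower, while 6056 genes were within it. The median difference over genes above the floor in both groups was −0.03. With the values as deposited, without scaling, 65.9% of the calls were in the higher direction, against 55.9% after scaling, so the balance of higher and lower calls follows the scaling. In a bulk sample fewer cells of a type and less RNA per cell cannot be told apart, and this holds for every gene below.

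**Figure D1:**
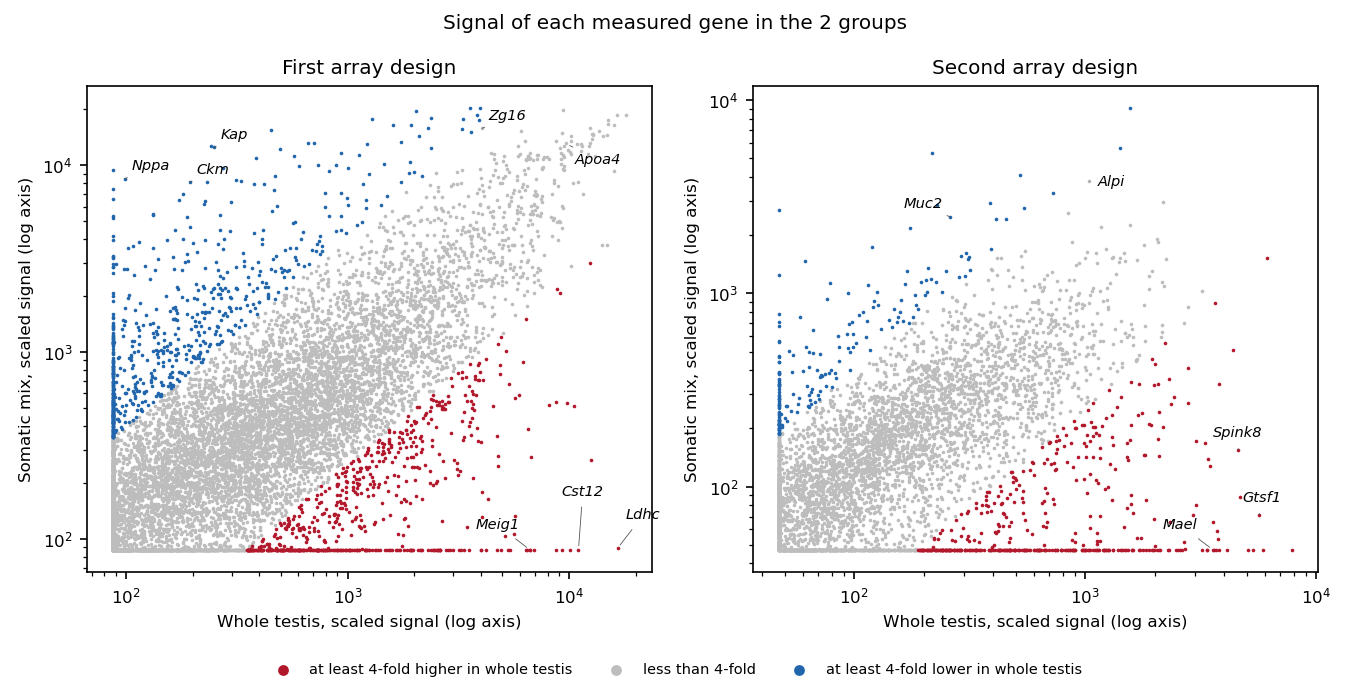
Scaled signal of each measured gene in whole testis (horizontal, log axis) and in the somatic mix (vertical, log axis), on the first design (left) and the second (right), with signals under the floor drawn at the floor. Each point is 1 gene from 1 array per group, red where at least 4-fold higher in whole testis (1082 genes), blue where at least 4-fold lower (855 genes), and Ldhc lies at 16538 in whole testis against 88.9 in the somatic mix.

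The defining markers of both groups differed in the direction that the labels name. They do not show what else the samples held, and genes outside the labels are described further on. Ldhc, the lactate dehydrogenase subunit of spermatocytes and sperm, had a signal of 16538 in whole testis and 88.9 in the somatic mix, a 186-fold difference. Its log2 difference was 7.54. Gtsf1, a zinc finger protein of the piRNA pathway in male germ cells, had 5663 in whole testis and 71.4 in the somatic mix on the second design, a 79.3-fold difference. Both markers were high in whole testis and close to background in the pool. Nppa, the natriuretic peptide of the heart atrium, had 99.1 in whole testis and 8443 in the somatic mix, 85.2-fold lower in whole testis. Ckm, the creatine kinase of muscle, had 194 in whole testis and 8091 in the somatic mix on the first design, and 21.5 against 289 for another probe set on the second design. Both heart and muscle markers were thus lower in whole testis, with log2 differences of −6.41 for Nppa and −5.38 for Ckm, and of −2.62 for the second Ckm probe set, where whole testis was at the floor.

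With both groups above the floor, the 8 genes with the largest difference towards whole testis were Ldhc, Gtsf1, Shcbp1l, Morn5, Syce1, Spa17, Fam229b and Marchf11. Syce1, a central element protein of the synaptonemal complex, had 3568 in whole testis and 65.7 in the somatic mix. Spa17, a sperm surface and flagellar protein that binds protein kinase A anchors, had 5644 in whole testis and 105 in the somatic mix. Morn5, a protein with membrane occupation and recognition nexus repeats, had 3714 in whole testis and 58.8 in the somatic mix. These signals differed by 54.3-fold, 53.5-fold and 63.1-fold. Shcbp1l, a spindle-associated protein of spermatocytes, had 3770 in whole testis and 53.8 in the somatic mix, a 70.0-fold difference. Marchf11, a membrane-bound ubiquitin ligase, had 2685 against 51.6, and Fam229b, whose role is little known, had 4698 against 87.9.

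A further 6 genes, the brightest with the somatic mix at the floor, gave differences that are lower bounds. Cst12, a cystatin of the testis, had 11018 in whole testis and 37.0 in the somatic mix, at least 126-fold higher. Rsph1, a radial spoke head protein of the axoneme, had 10061 in whole testis and 43.2 in the somatic mix, at least 115-fold higher. Fabp9, a fatty acid binding protein of the sperm head, had 9298 in whole testis and 13.9 in the somatic mix, at least 107-fold higher, although its other measured probe set differed by only 0.98 on the log2 scale. Spata4, Rpl39l (a testis copy of a large ribosomal subunit protein) and Meig1 (needed for the manchette of spermatids) were at least 99.8-fold, 79.8-fold and 76.3-fold higher. Of these 14 genes Cst12 stood apart in the fractions, with 12622 in the spermatogonial fraction, 12771 in the leptotene and zygotene fraction and 5823 in the pachytene fraction. Cst12 is also a gene of Sertoli cells, and the spermatogonial fraction was brighter than whole testis for other genes of testis somatic cells. Inha, of Sertoli cells, had 2533 in whole testis and 6162 in that fraction, and Cyp17a1, of Leydig cells, had 1025 in whole testis and 3413 in that fraction. A fraction signal is therefore that of the fraction and not of its named germ cell alone. The other 13 had their highest fraction signal in the pachytene fraction, among them Ldhc with 58.8 in the spermatogonial fraction, 1855 in the leptotene and zygotene fraction and 23494 in the pachytene fraction.

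In the lower direction the 8 genes with the largest difference were Nppa, Mb, Kap, Ckm, Pln, Cox8b, S100a8 and Guca2a. Mb, the oxygen store of heart and red muscle, had 241 in whole testis and 12680 in the somatic mix, 52.6-fold lower in whole testis, although a dimmer probe set differed by only −0.13 on the log2 scale. Pln, phospholamban, which restrains the calcium pump of heart muscle, had 132 in whole testis and 5499 in the somatic mix. Cox8b, the heart and muscle isoform of a cytochrome oxidase subunit, had 133 in whole testis and 5386 in the somatic mix. These muscle genes were accompanied by genes of other organs. Kap, an androgen-regulated protein of the kidney proximal tubule, had 249.6 in whole testis and 12423 in the somatic mix. S100a8, a calcium-binding protein of neutrophils, had 180 in whole testis and 6991 in the somatic mix. Guca2a, the guanylin peptide of intestinal epithelium, had 173 in whole testis and 6527 in the somatic mix. With whole testis at the floor the brightest were Myl3, Tnnc1 and Myl7 of heart muscle, Gnmt of liver, and Miox and Umod of kidney. Myl3, a ventricular myosin light chain, had 70.8 in whole testis and 9381 in the somatic mix, at least 108-fold lower. Umod, the main protein of urine, had 79.1 in whole testis and 4180 in the somatic mix, at least 47.9-fold lower.

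The promoters of the genes called in the 2 directions differed in base composition. In windows from RefSeq that run from 250 bases before to 50 bases after the transcription start, 891 of the 1082 genes called higher had an entry, with a median of 20 CG dinucleotides. For 672 of the 855 genes called lower the median was 6, and for 11960 measured genes it was 19. The letters TATAAA, searched on both strands, stood in 8.64% of the windows of genes called higher, 22.0% of those called lower, 8.8% of all measured genes and 14.2% of all 27025 windows in the table. TGACGTCA, the full cyclic AMP response element, which is bound by the CREM factor of spermatids, stood in 3.59%, 0.893%, 2.88% and 1.88% of the same groups of windows. A match is only a run of letters and does not show a bound site. The windows of 3 named genes that were higher in whole testis and 2 that were lower are shown because they span this range of composition, with CG dinucleotides and TATAAA in capitals. They are Marchf11 on the plus strand at chr15:26308798-26309097 with 30 CG dinucleotides, Fam229b on the minus strand at chr10:39133857-39134156 with 27, Ldhc on the plus strand at chr7:46861013-46861312 with 9, Kap on the minus strand at chr6:133853618-133853917 with 1, and Umod on the minus strand at chr7:119479213-119479512 with 0, all in GRCm38.p6 and written 5′ to 3′.
Marchf11: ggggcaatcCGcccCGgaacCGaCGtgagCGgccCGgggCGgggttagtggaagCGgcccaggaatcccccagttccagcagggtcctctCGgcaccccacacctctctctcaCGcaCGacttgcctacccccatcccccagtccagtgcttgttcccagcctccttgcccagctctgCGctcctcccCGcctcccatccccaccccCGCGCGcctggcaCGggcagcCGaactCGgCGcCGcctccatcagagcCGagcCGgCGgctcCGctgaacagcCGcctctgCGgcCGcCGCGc
Fam229b: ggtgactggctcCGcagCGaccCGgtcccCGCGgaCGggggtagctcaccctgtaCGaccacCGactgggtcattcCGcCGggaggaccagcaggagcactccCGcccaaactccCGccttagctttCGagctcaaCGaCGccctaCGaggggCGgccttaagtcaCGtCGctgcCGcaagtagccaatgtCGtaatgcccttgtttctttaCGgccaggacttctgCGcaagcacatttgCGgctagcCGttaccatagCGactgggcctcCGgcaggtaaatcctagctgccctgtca
Ldhc: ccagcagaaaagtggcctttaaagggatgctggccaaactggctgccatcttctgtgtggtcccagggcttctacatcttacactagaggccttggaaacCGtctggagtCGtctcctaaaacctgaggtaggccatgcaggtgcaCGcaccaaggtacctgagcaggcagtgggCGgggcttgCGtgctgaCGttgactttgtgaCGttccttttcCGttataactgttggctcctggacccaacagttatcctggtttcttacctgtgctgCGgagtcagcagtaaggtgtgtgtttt
Kap: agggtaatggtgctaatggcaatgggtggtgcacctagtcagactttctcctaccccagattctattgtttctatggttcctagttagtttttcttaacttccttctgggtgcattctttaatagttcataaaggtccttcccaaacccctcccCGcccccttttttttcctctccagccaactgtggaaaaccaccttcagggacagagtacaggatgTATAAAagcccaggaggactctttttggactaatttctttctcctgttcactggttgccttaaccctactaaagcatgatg
Umod: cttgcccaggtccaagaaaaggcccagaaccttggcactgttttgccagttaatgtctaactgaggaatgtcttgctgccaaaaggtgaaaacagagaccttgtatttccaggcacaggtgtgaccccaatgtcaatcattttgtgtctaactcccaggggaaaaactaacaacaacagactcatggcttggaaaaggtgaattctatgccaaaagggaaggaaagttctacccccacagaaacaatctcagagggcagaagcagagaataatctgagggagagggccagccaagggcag
Kap has its TATAAA on the coding strand, starting 31 bases before the transcription start. Over the named genes with an entry, the number of CG dinucleotides ran from 3 to 30 (median 15.5) in the 12 that were higher in whole testis and from 0 to 11 (median 3) in the 14 that were lower. TATAAA stood in 1 of the 12 and in 6 of the 14.

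Most genes of a spermatocyte list were called higher. Of 26 measured genes of this pachytene list, 23 were called higher and 0 lower, with a median log2 difference of 3.70, against −0.07 over all measured genes. The counts of this list and of those below stand beside 7.22% of all measured genes called higher and 5.7% called lower. Clgn, a chaperone of the spermatocyte endoplasmic reticulum, had 4748 in whole testis and 9.28 in the somatic mix, at least 54.4-fold higher. Crisp2, a sperm cysteine-rich secretory protein, had 4001 in whole testis and 14.3 in the somatic mix. Hspa2, the heat shock protein that takes part in desynapsis, had 3031 in whole testis and 263 in the somatic mix, 11.5-fold higher. The 3 members that were not called were Mybl1, a transcription factor of pachytene cells (126 in whole testis, 17.7 in the somatic mix), Rfx2 (202 and 8.70) and Pgam2 (5106 and 4694). Pgam2 encodes the phosphoglycerate mutase shared by muscle and spermatocytes, and its signal in the fractions was 6.73 in the spermatogonial fraction, 14.6 in the leptotene and zygotene fraction and 12219 in the pachytene fraction.

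Most meiotic chromosome genes were called higher. Of 17 genes of the synaptonemal complex, its telomere attachments and the meiotic cohesins, 12 were called higher and 0 lower, with a median of 3.57. Sycp2, an axial element protein, had 3598 in whole testis and 22.2 in the somatic mix on the second design, at least 76.5-fold higher. Sycp3, its partner in the axis, had 3363 in whole testis and 69.6 in the somatic mix on the first, at least 38.6-fold higher. Stag3 and Smc1b, subunits of the meiotic cohesin ring, had 2555 and 1290 in whole testis, against 22.3 and 4.55 in the somatic mix. The 5 members not called were Six6os1 (listed by its clone name 4930447C04Rik), Hormad1, Hormad2, Terb2 and Rec8. Of these only Terb2, with 267 in whole testis and 168 in the somatic mix, was above the floor in both groups. The other differences are lower bounds set by the floor, so their true size is not known. Rec8, the meiotic kleisin, had 116 in whole testis and 6.20 in the somatic mix, a lower bound of 1.33-fold.

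Of 19 measured genes of meiotic recombination 10 were called higher and 0 lower, with a median of 2.31. Psmc3ip, the HOP2 cofactor of strand exchange, had 2033 in whole testis and 170 in the somatic mix on the first design, and 2111 against 132 for another probe set on the second. It was called higher on both designs. Tex15, which acts in the repair of meiotic breaks and in transposon silencing, had 2124 in whole testis and 7.44 in the somatic mix. Spo11, the enzyme that makes the breaks, had 652 in whole testis and 95.8 in the somatic mix, 6.81-fold higher. Dmc1, the meiotic recombinase, had 289 in whole testis and 55.7 in the somatic mix and stayed under the threshold, at no less than 3.31-fold. Prdm9, which places the breaks, had 96.8 in whole testis, close to the floor, and 26.7 in the somatic mix.

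The piRNA pathway showed the same direction. Of 22 measured genes of the pathway and the germ granule 17 were called higher and 0 lower, with a median of 3.33. Piwil2 and Piwil1, the slicer proteins that carry piRNAs, had 2605 and 1408 in whole testis, against 67.4 and 8.35 in the somatic mix. Mael, a granule protein that represses transposons, had 3577 in whole testis and 2.503 in the somatic mix, at least 76.1-fold higher. Tdrd9, a helicase with a Tudor domain, had 2337 in whole testis and 65.8 in the somatic mix, 35.5-fold higher. Tdrd3 and Tdrd7 passed the threshold from a higher level in the pool, with 1371 and 2369 in whole testis, against 328 and 505 in the somatic mix, although another Tdrd3 probe set differed by −0.09 on the log2 scale. Tdrd1 was at 94.3 in whole testis, near the floor, and 7.71 in the somatic mix.

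The 2 ends of the germ cell lineage differed less from the pool. Of 21 measured spermatogonial genes 6 were called higher and 0 lower, with a median of 1.08, which became −0.0135 when the second design was read alone. The 6 were Dazl, Rhox13, Ddx4, Stra8, Dmrtb1 and Dmrt1, several of which are also expressed in later germ cells or in Sertoli cells. Dazl, an RNA-binding protein of the germ line, had 3254 in whole testis and 3.61 in the somatic mix, at least 37.3-fold higher. Stra8, the switch protein of meiotic entry, had 1339 in whole testis and 47.8 in the somatic mix. The other members went both ways. Id4, an inhibitor of helix-loop-helix factors found in spermatogonial stem cells, had 1058 in whole testis and 339 in the somatic mix. Another Id4 probe set went the other way, at −1.68 on the log2 scale. Uchl1, a ubiquitin hydrolase of spermatogonia and neurons, had 599 in whole testis and 263 in the somatic mix. Gfra1, the receptor of the niche factor GDNF, had 145 in whole testis and 232 in the somatic mix, and its co-receptor Ret had 79.8 and 142. Of 29 spermatid genes 13 were at the floor in both groups, among them the transition proteins Tnp1 and Tnp2 and the protamine Prm2. Over the 16 measured the median was 0.08, with 2 called higher (12.5%, against 7.22% of all measured genes). Catsper2, a subunit of the sperm calcium channel, had 1914 in whole testis and 85.5 in the somatic mix, but its probe set on the second design differed by −0.11. Tekt2, a filament protein of the axoneme, had 483 in whole testis and 23.6 in the somatic mix. The result for this list also follows the choice of probe set. Crem and Odf2 were read at 0.11 and 1.87 and not called, while other probe sets of theirs differed by 3.04 and 4.90. Oaz3 was read at 0.05, and another of its probe sets differed by −1.04.

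**Figure D2:**
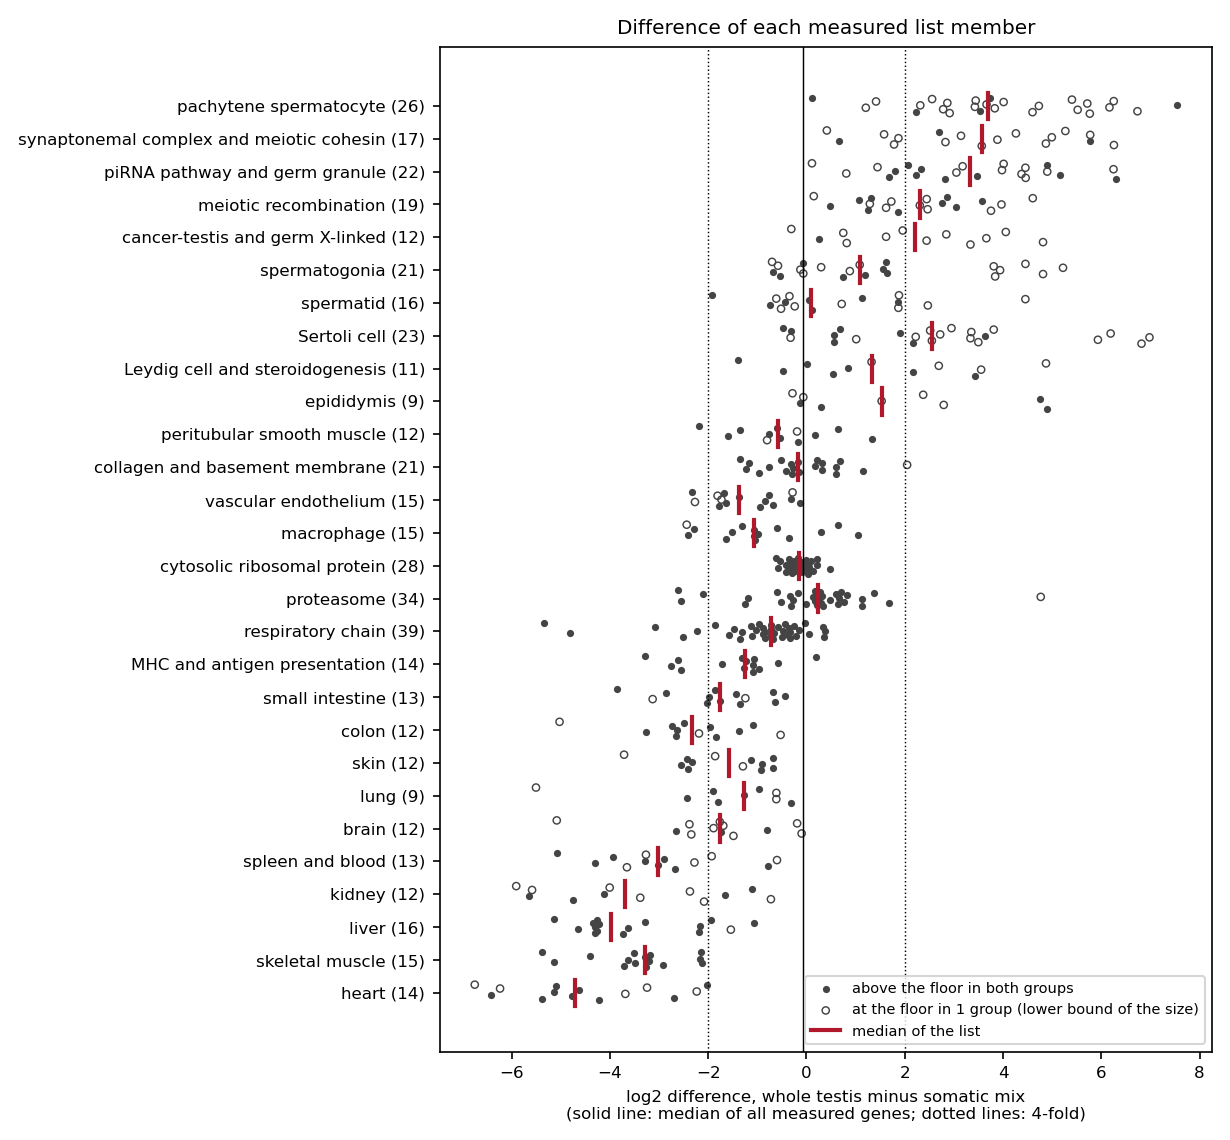
log2 difference, whole testis minus somatic mix, for each measured member of the gene lists (number of measured members in brackets), with filled points above the floor in both groups, open points at the floor in 1 group and a red bar at each list's median. Pachytene genes have a median of 3.70 and heart genes one of −4.70, with open points as lower bounds of size that leave the order of such lists unknown, and the ribosomal protein genes lie between −0.62 and 0.48.

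Most genes of a list for Sertoli cells, which nurse the germ cells, were called higher. Of 23 measured Sertoli genes 15 were called higher and 0 lower, with a median of 2.55. The 15 include Dmrt1, Tsx and Nr5a1, which also stand in the spermatogonial, X-linked germ cell and Leydig lists. Aard, a small protein of Sertoli cells, had 5324 in whole testis and 58.2 in the somatic mix, at least 61.0-fold higher. Defb19, a defensin of Sertoli cells, had 5309 in whole testis and 4.29 in the somatic mix on the second design, at least 113-fold higher. Inha, the alpha subunit of inhibin, had 2533 in whole testis and 204 in the somatic mix, 12.4-fold higher. Amhr2, the receptor of anti-Müllerian hormone, had 986 in whole testis and 5.65 in the somatic mix on the first design, and 6679 against 155 for another probe set on the second. Clu, clusterin, was abundant on both sides, with 14076 in whole testis and 3739 in the somatic mix, 3.77-fold higher and so under the threshold. Amh, the hormone itself, was at the floor in both groups. Sox9, Gata4 and Fabp5 were lower in whole testis and not called. Sox9 had 46.8 in whole testis, below the floor, and 109 in the somatic mix. Gata4 had 149 and 186, and Fabp5 had 2148 and 2968. On the log2 scale another Sox9 probe set differed by 0.17 and another Fabp5 probe set by −1.42.

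Leydig cells, which make testosterone, gave 5 genes called higher and 0 lower of 11 measured, with a median of 1.33. Cyp17a1, the enzyme that turns progestins into androgens, had 1025 in whole testis and 10.8 in the somatic mix, at least 11.8-fold higher. Hsd3b1, a 3-beta-hydroxysteroid dehydrogenase, had 1333 in whole testis and 123 in the somatic mix, 10.8-fold higher. Star, which carries cholesterol into mitochondria and is shared with the adrenal, had 294 in whole testis and 163 in the somatic mix. Tspo, a mitochondrial outer membrane protein, had 446 in whole testis and 1171 in the somatic mix. Cyp11a1 was not called, with 219 in whole testis and 10.1 in the somatic mix, and another probe set differed by −0.62 on the log2 scale. Hsd17b3 was at the floor in both groups. Nr5a1, among the 5 called higher, is also counted in the Sertoli list.

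The supporting tissue of the testis stood near or below the pool. Of 12 smooth muscle genes that mark peritubular cells 0 were called higher and 1 lower (8.33%, against 5.7% of all measured genes), with a median of −0.57. Acta2, smooth muscle actin, had 7457 in whole testis and 6600 in the somatic mix, while Des, desmin, had 211 in whole testis and 964 in the somatic mix, 4.58-fold lower, although another Des probe set differed by 0.08 on the log2 scale. Over 21 collagen and basement membrane genes the median was −0.16, and 1 was called higher (4.76%, against 7.22% of all measured genes). That gene was Lama1, the laminin chain of the tubule basement membrane, with 361 in whole testis and 48.4 in the somatic mix. Endothelial genes had a median of −1.37 over 15 measured, with Emcn and Plvap called lower. Macrophage genes had a median of −1.07 over 15 measured, with Lyz2, Tyrobp and C1qa called lower. Fcgr3, an Fc receptor, had 682 in whole testis and 330 in the somatic mix, against the direction of most of that list.

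Genes of the pooled organs were lower in whole testis, with counts of calls that differed by organ. A gene could be called lower only where the somatic mix was at 4 floors or more. The counts and medians therefore also follow how bright a list was in the pool, and do not rank the organs. Gria2 of the brain list, with 72.4 in whole testis and 323 in the somatic mix, was too dim to be called. All 14 heart genes were called lower (median −4.70), as were all 15 measured skeletal muscle genes (median −3.28), 13 of 16 liver genes (median −3.98), 9 of 12 kidney genes (median −3.69) and 10 of 13 genes of spleen and blood (median −3.03). None of the genes of the 11 organ lists was called higher in whole testis. Myh6, the atrial myosin heavy chain, had 274 in whole testis and 9659 in the somatic mix, 35.2-fold lower. Pvalb, parvalbumin of fast muscle, had 231 in whole testis and 8105 in the somatic mix, 35.1-fold lower. Fgb, the beta chain of fibrinogen made in liver, had 102 in whole testis and 3602 in the somatic mix, 35.3-fold lower. Slc4a1, the anion exchanger of red cells, had 114 in whole testis and 3874 in the somatic mix, 34.0-fold lower. Organs with fewer calls were colon (7 of 12, median −2.34), skin (5 of 12), brain (4 of 12), lung (2 of 9), stomach (1 of 5, with 7 more at the floor in both groups) and small intestine (4 of 13). In brain the called genes were Mbp, a myelin protein, Syt1 and Snap25 of synaptic vesicle release, and Nefm, a neurofilament. Mbp had 86.2 in whole testis and 2950 in the somatic mix, at least 33.8-fold lower, although another Mbp probe set differed by −0.16 on the log2 scale.

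Several small intestine genes had high signals in both groups. Apoa4, an apolipoprotein secreted by enterocytes, had 9684 in whole testis and 13048 in the somatic mix. Fabp2, the intestinal fatty acid binding protein, had 6887 in whole testis and 10706 in the somatic mix. Fabp1, shared by liver and intestine, had 7130 in whole testis and 11356 in the somatic mix. In the 3 germ cell fractions none of these 3 genes exceeded 40.9, which is below the floor. Lct, the lactase of the brush border, had 1726 in whole testis and 4391 in the somatic mix, and at most 56.2 in a fraction. Cdx2, the transcription factor of intestinal identity, had 264 in whole testis and 1040 in the somatic mix.

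Other organs showed this pattern in smaller measure. Zg16, a goblet cell lectin of the colon, had 4058 in whole testis and 15723 in the somatic mix, and at most 42.7 in a fraction. Alb, albumin of the liver, had 3907 in whole testis and 17453 in the somatic mix, against 46.4 to 94.9 in the fractions. Myl1 and Acta1 of skeletal muscle had 1001 and 890 in whole testis, against 9594 and 10037 in the somatic mix and at most 45.8 and 32.0 in a fraction. Over 69 genes of the 11 organ lists that were at 16 floors or more in the somatic mix, the signal in whole testis was a median of 7.55% of that in the somatic mix. In the spermatogonial, leptotene and zygotene, and pachytene fractions the same median was 1.02%, 0.847% and 0.865%. Of the 69 genes, 61 were above the floor in whole testis, and 26, 18 and 17 in these fractions. By organ the median in whole testis was 33.3% for 8 genes of small intestine, 15.5% for 6 of colon, 8.87% for 13 of skeletal muscle, 5.36% for 15 of liver, 3.55% for 7 of kidney and 2.94% for 11 of heart. Whole testis was above all 3 fractions for all 8 small intestine genes, all 15 liver genes and all 13 muscle genes, and for 6 of the 11 heart genes.

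Probe sets were also taken across the arrays, without any list. They were picked for being below the floor in all 3 fractions, so they cannot show how whole testis differs from the fractions. On the first design 481 named probe sets were at 4 floors or more in the somatic mix and below the floor in all 3 fractions, and whole testis was above the floor for 58.0% of them. On the second design there were 120, and whole testis was above the floor for 45.8%. Over all probe sets of the 2 designs whole testis was above the floor for 60.3% and 52.2%, so these shares are no excess. The median signal in whole testis was 11.4% and 11.1% of that in the somatic mix on the 2 designs. Taking genes at 4 floors or more in whole testis and below the floor in all 3 fractions, a rule set after the values were seen, gave 77 genes, of which 64 were brighter in the somatic mix. Digestive enzymes of the exocrine pancreas were among them, although pancreas is not named among the pooled organs. Cpa1, a carboxypeptidase, had 1735 in whole testis and 13270 in the somatic mix, and Clps, colipase, had 1940 and 16289. Fat cell genes were among them too. Adipoq, adiponectin, had 2982 in whole testis and 795 in the somatic mix, 3.75-fold higher, and Car3, a carbonic anhydrase of fat and muscle, had 5993 and 2838, with another Car3 probe set at −1.03 on the log2 scale. The part of these organ transcripts in the comparison of whole testis with somatic mix was not tested.

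**Figure D3:**
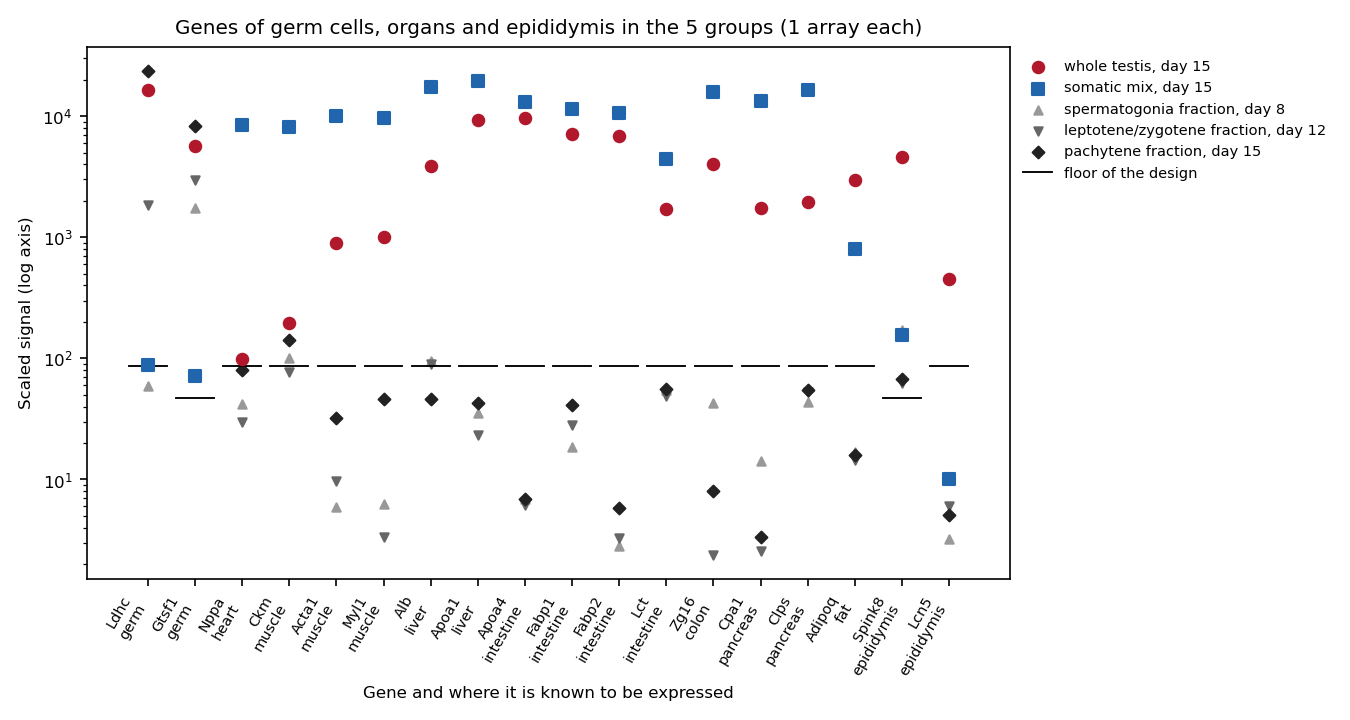
Scaled signal (vertical, log axis) of 18 genes in the 5 groups, 1 array each, with the floor of the design as a short line. Genes of intestine, colon, liver and pancreas stand between 1726 (Lct) and 9684 (Apoa4) in whole testis and below or near the floor in the 3 germ cell fractions, while Nppa of heart is at 99.1 in whole testis, close to the floor.

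A group of epididymal genes was called higher in whole testis. Of 9 measured genes of the epididymis, the duct in which sperm mature, 4 were called higher and 0 lower, with a median of 1.53. Spink8, a protease inhibitor, had 4597 in whole testis and 155 in the somatic mix on the second design, 29.7-fold higher, and 62.2 to 172 in the fractions. Defb42, a defensin, had 3454 in whole testis and 128 in the somatic mix, 27.0-fold higher, and 46.8 to 436 in the fractions. Gpx5, a secreted glutathione peroxidase, had 605 in whole testis and 66.4 in the somatic mix, and Lcn5, a retinoid-binding lipocalin, had 453 and 10.1. Of the 1082 genes called higher, 6 were below the floor in all 3 fractions, and these were Defb2, Mucl2, Gpx5, Serpina1f, Pate6 and Lcn5. They were named after their values were seen. Mucl2 had 864 in whole testis and 13.9 in the somatic mix. The sources used here do not say whether the whole testis samples held epididymis, and the part of it in other differences was not tested.

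Housekeeping complexes differed among themselves. Of 28 measured cytosolic ribosomal protein genes 0 were called in either direction, 26 lay within the error limit, and the median was −0.16. Respiratory chain genes had a median of −0.72 over 39 measured, with 24 lower beyond the limit and 0 higher, against 30.6% and 29.0% of all measured genes. The 5 called lower were Cox8b, Cox6a2 and Cox7a1, which are the heart and muscle isoforms, and Ndufa4 and Cox8a. Cox6a2 had 188 in whole testis and 5252 in the somatic mix on the first design, and 15.4 against 1103 for another probe set on the second. Proteasome genes had a median of 0.23 over 34 measured. Psma8, the alpha subunit of the spermatocyte proteasome, was the 1 called higher, with 2377 in whole testis and 5.89 in the somatic mix, at least 27.3-fold. The 3 called lower were Psmb8, Psmb9 and Psmb10, the catalytic subunits of the immunoproteasome that trims peptides for MHC class I.

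Antigen presentation genes were lower as a list, with a median of −1.26 over 14 measured, 4 called lower and 0 higher. B2m, the light chain of MHC class I, had 4572 in whole testis and 10779 in the somatic mix, 2.36-fold lower. Cd74, the invariant chain of class II, had 225 in whole testis and 2195 in the somatic mix, 9.76-fold lower. Replication and cell cycle genes had a median of 0.25 over 31 measured. Of these 4 were called higher (12.9%) and 1 lower (3.23%), against 7.22% and 5.7% of all measured genes. Bub1, a spindle checkpoint kinase, had 1870 in whole testis and 117 in the somatic mix, and Tk1, thymidine kinase, had 110 in whole testis and 669.5 in the somatic mix, 6.08-fold lower. Top2a, a topoisomerase of dividing cells, had 3435 in whole testis and 732 in the somatic mix, but its plain probe set on the second design differed by −0.47. Of 15 measured imprinted genes 10 lay within the error limit and 1 was called lower (6.67%), near the share over all measured genes. That gene was Cdkn1c, a cell cycle inhibitor, with 217 in whole testis and 994 in the somatic mix. Of 13 measured homeobox genes Rhox13, Rhox5 and Hoxa4 were called higher (23.1%) and Hoxc10 lower (7.69%). Hoxa4 had 437 in whole testis and 24.3 in the somatic mix, at least 5.01-fold higher.

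Chosen pairs of a germ cell gene and a widely expressed relative were set side by side, several of them autosomal copies of X-linked parents. The share of such copies among all genes called higher was not counted. Of 46 such pairs, 32 had both partners measured. The germ cell partner was called higher in 26 of the 32 (median 3.66) and lower in 0. Of the widely expressed partners 19 lay within the error limit, 1 was called higher, 2 were called lower, and the median was −0.21. The germ cell partner had the larger difference in 31 of the 32 pairs. In the remaining pair, the nuclear RNA exporters Nxf2 and Nxf1, the difference of Nxf2 (339 in whole testis, 28.9 in the somatic mix) is a lower bound set by the floor, so its order against Nxf1 is not known.

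The pairs cover glycolysis, respiration and gene expression. Pgk2, the autosomal phosphoglycerate kinase of spermatocytes, had 600 in whole testis and 5.34 in the somatic mix, at least 6.88-fold higher, while its X-linked parent Pgk1 had 4640 and 9418. Pdha2, the testis subunit of pyruvate dehydrogenase, had 2315 in whole testis and 4.19 in the somatic mix, while X-linked Pdha1 had 991 and 3364. Cyct, cytochrome c of the testis, had 2456 in whole testis and 35.2 in the somatic mix, while Cycs had 4692 and 10224. In each of these pairs the widely expressed partner was lower in whole testis beyond the error limit and under the 4-fold threshold. Cox8c and Cox8a moved apart by 4-fold or more on both sides, with 6515 in whole testis and 385 in the somatic mix for Cox8c, and 1735 and 8123 for Cox8a, although another Cox8c probe set differed by only 0.34 on the log2 scale. Slc25a31, the germ cell ADP/ATP carrier, had 670 in whole testis and 11.6 in the somatic mix, while Slc25a4, the carrier of heart and muscle, had 3603 and 15033. Some widely expressed partners were themselves higher. Tbp, the TATA-binding protein, had 419 in whole testis and 126 in the somatic mix, beside 4717 and 356 for its germ cell relative Tbpl1. Papola, a poly(A) polymerase, had 1314 in whole testis and 454 in the somatic mix, beside 1049 and 43.9 for Papolb.

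**Figure D4:**
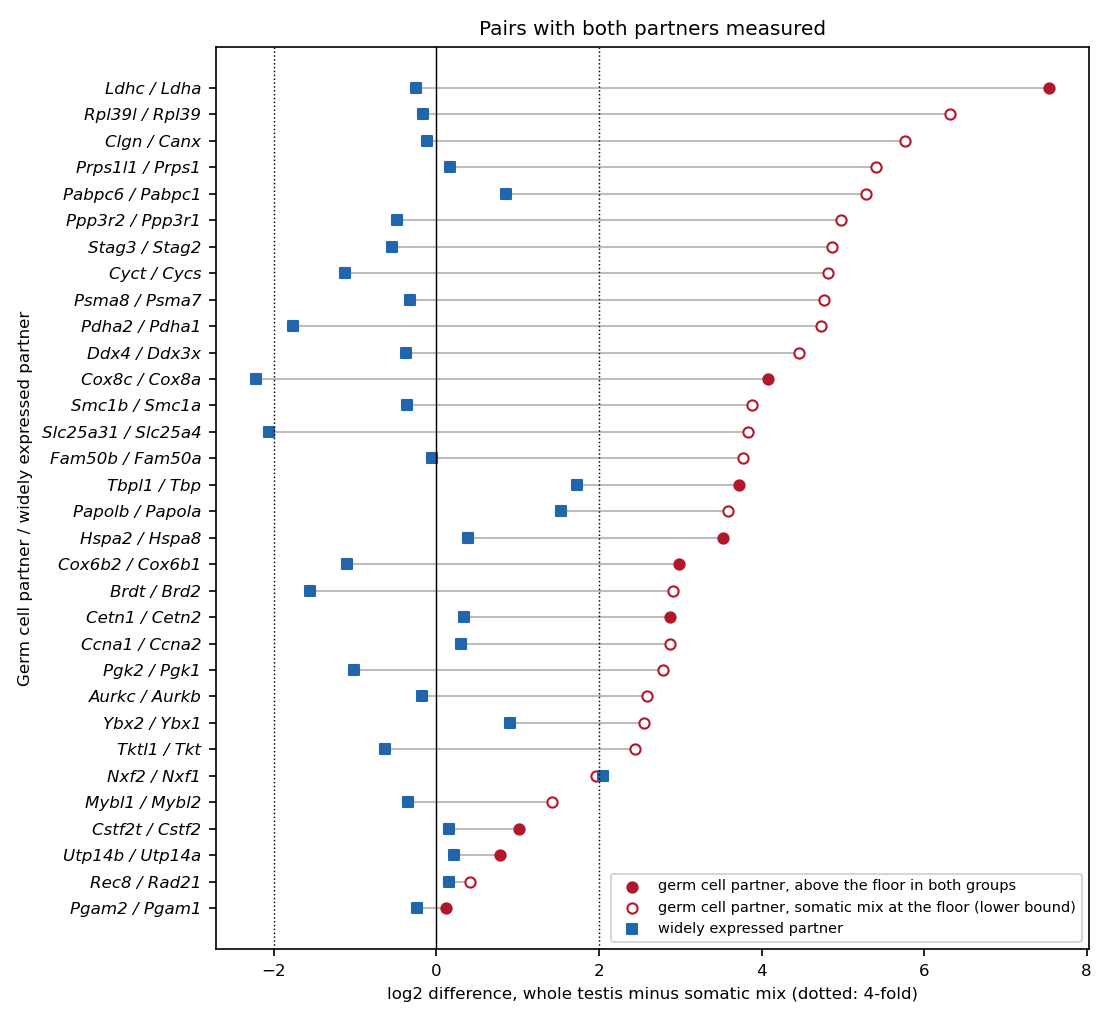
log2 difference, whole testis minus somatic mix, for the germ cell partner (red circles, open where the somatic mix is at the floor and the value is a lower bound) and the widely expressed partner (blue squares) of 32 pairs. The germ cell partner lies past the dotted 4-fold line in 26 pairs, from Ldhc at 7.54 down, while 19 of the widely expressed partners lie within 0.57 of 0.

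Genes called higher were spread over all chromosomes. Chromosome names come from the RefSeq gene table of GRCm38.p6. On the X chromosome 39 of 475 measured genes were called higher (8.21%) and 15 lower (3.16%), against 7.2% and 5.83% of 14398 autosomal genes. Of 12 measured X-linked genes of a cancer-testis and germ cell list 6 were called higher and 0 lower, with a median of 2.20. The X-linked genes called higher included Rhox13, Nxf3, Mageb16, Taf7l and Cited1. Rhox13, a homeobox protein of germ cells, had 1323 in whole testis and 13.0 in the somatic mix, at least 28.1-fold higher. Taf7l, a germ cell subunit of the transcription factor TFIID, had 1103 in whole testis and 14.8 in the somatic mix, at least 12.7-fold higher. On the Y chromosome, where 7 genes were measured, Uba1y, a ubiquitin-activating enzyme, had 1130 in whole testis and 12.1 in the somatic mix, and Usp9y, a ubiquitin protease, had 354 and 42.0.

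The fraction in which a gene was brightest differed between the X chromosome and the autosomes. In pachytene spermatocytes the sex chromosomes are gathered in the sex body and largely silent. Of the 1036 autosomal genes called higher, 79.8% had their highest fraction signal in the pachytene fraction, against 36.8% of all measured genes. Of the 39 X-linked genes called higher, 0 had it in the pachytene fraction, 28 in the leptotene and zygotene fraction and 11 in the spermatogonial fraction. Among all 475 measured X-linked genes 10.5% were highest in the pachytene fraction. Taf7l had 1083 in the spermatogonial fraction, 2735 in the leptotene and zygotene fraction and 190 in the pachytene fraction, and Rhox13 had 1423, 3492 and 244. Of the 855 genes called lower, 373 (43.6%) were below the floor in all 3 fractions, against 11.4% of all measured genes.

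A repeat of a gene's difference came only from the other design. On the 100 probe sets present on both designs the differences had r = 0.94 across probe sets, which share arrays and are not independent, and 77 had the same sign. The difference was 0.33 larger on the first design on average. limma, fitted to those 100 probe sets over all 10 arrays, found 21 higher in whole testis (21.0%) and 25 lower (25.0%) at an adjusted p under 0.05. The split follows the scaling and the arrays: deposited values gave 17 in the higher direction and 3 in the lower, median scaling 27 and 16, quantile normalization 11 and 21, and leaving out whole testis replicate 2 gave 22 and 15. Zranb1, a deubiquitinase, was 1.77 and 1.48 higher on the log2 scale on the 2 designs (limma, adjusted p = 4.36e-08). Gps1, a subunit of the COP9 signalosome, was 1.77 and 1.26 higher (limma, adjusted p = 1.53e-07). Rfk, riboflavin kinase, was lower by −1.48 and −1.79 (limma, adjusted p = 4.36e-08). Where nothing states that the arrays of a group come from separate preparations, these p-values measure only the spread between arrays, which may be technical.

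Different probe sets for the same gene were further apart. For 2212 genes read on both designs by different probe sets r was 0.42 across genes. Of 128 genes called higher on the first design, 86 had the same sign on the second and 21 were called higher there too. Of 65 called lower on the first design, 57 had the same sign and 18 were called lower. Of 54 called higher on the second design, 46 had the same sign on the first, as did 61 of 70 called lower. The share with the same sign over all 2212 genes was not counted. No gene was called in opposite directions. Called on both were thus 0.949% of the 2212 genes in the higher direction and 0.814% in the lower.

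The genes called on both designs include germ cell, organ and widely expressed genes. Ropn1l, a flagellar protein of the radial spoke, had 6626 in whole testis and 59.5 in the somatic mix on the first design, and 1011 against 34.8 on the second. Phf7, a histone reader of male germ cells, had 12604 in whole testis and 265 in the somatic mix on the first, and 7020 against 507 on the second. Tesmin, a metal-binding protein of spermatocytes, had 1808 in whole testis and 130 in the somatic mix on the first, and 1447 against 12.0 on the second. Clgn, Cmtm2a, Trmt10a, Psmc3ip, Amhr2, Supt20 and Ift122 were the next in order, ranked by the smaller of their 2 differences, from 4.20 for Clgn to 3.07 for Ift122. In the lower direction Cox6a2 led, followed by Ttr, Slc6a6, Ang, Ckm, Mep1a, Ttn, Myom2, Prkg2 and Cd44. Ttr, transthyretin of liver and choroid plexus, had 703 in whole testis and 13121 in the somatic mix on the first design, and 1147 against 14271 on the second. Ttn, the giant spring protein of muscle, had 68.0 in whole testis and 1188 in the somatic mix on the first, and 32.2 against 275 on the second. Slc6a6, a taurine transporter, had 31.3 in whole testis and 1077 in the somatic mix on the first, and 18.5 against 563 on the second.

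**Figure D5:**
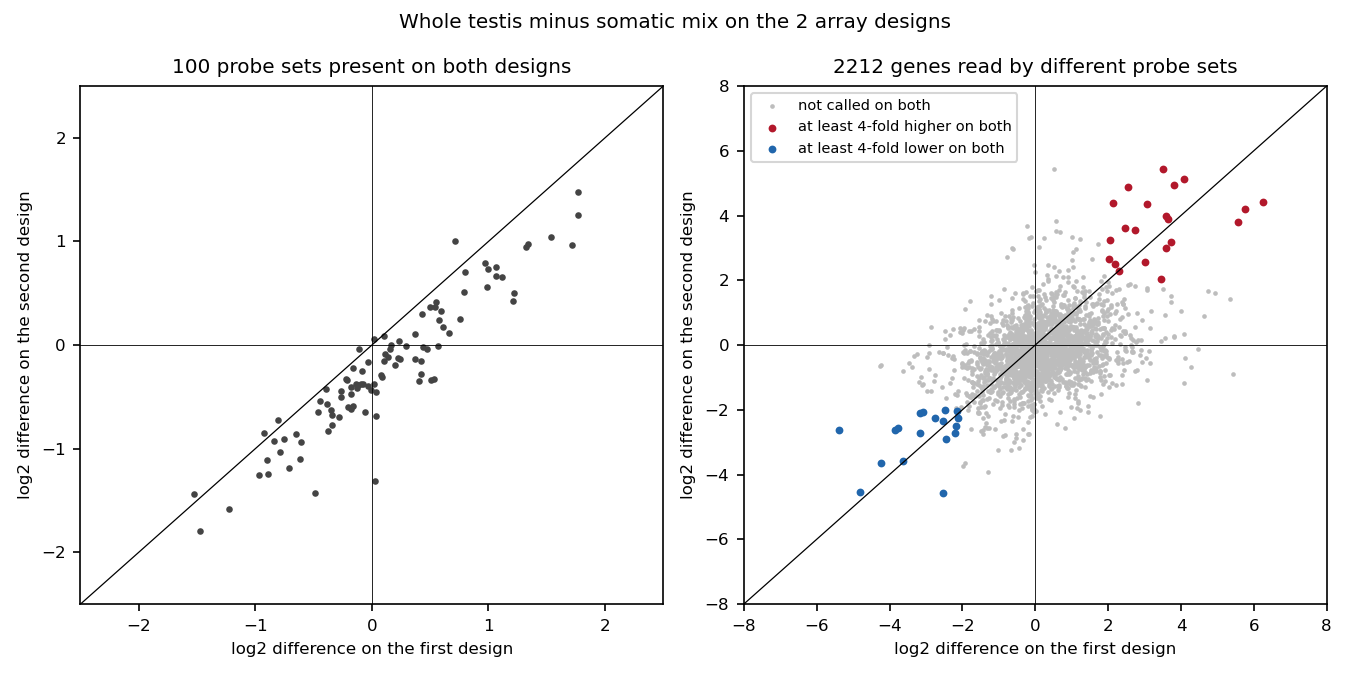
log2 difference, whole testis minus somatic mix, on the first design (horizontal) and the second (vertical), for the 100 probe sets present on both (left) and for 2212 genes read by different probe sets (right), with the line of equality. The shared probe sets follow the line with an offset of 0.33 (r = 0.94), while genes read by different probe sets scatter widely (r = 0.42), and 21 of these genes were called higher and 18 called lower on both designs.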

How the data were processed

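Whole testis and somatic mix RNA was measured by 1 array per group on each of 2 Affymetrix designs. Total RNA was purified on columns and amplified to biotin-labelled cRNA, per the labels' protocols, which give the same cell dissociation text for all groups. The deposited values are a linear signal intensity per probe set, made with GCOS 1 per the submitters' processing notes, and the sources used here do not give the authors' scaling target.

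Each array was scaled to the mean of its signals after trimming 2% at each end, shared within a design. The floor of the first design was the 90th percentile of 72 probe sets for chemosensory receptors, and that of the second the median of all its signals, since only 15 such probe sets were found there. Signals below it were set to it. A gene was read from its brightest probe set over the 5 arrays, the first design preferred, and only probe sets that map to 1 gene were used: 20380 of 22690 on the first design and 14661 of 22575 on the second. Of these 20351 and 14486 matched the RefSeq gene table of GRCm38.p6, which gave chromosomes. The number of arrays limits the precision, and p-values were computed only for shared probe sets. limma was fitted to the 100 probe sets present on both designs, with design as replicate, and adjusted by Benjamini-Hochberg. The steps were tested on simulated data.

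Named genes were the 8 with the largest difference in each direction above the floor in both groups, the 6 brightest with the other group at the floor, the 10 led by the smaller difference in each direction among those called on both designs, and list members, leaving out unnamed clones and, among the first 2 groups, genes with a probe set over 1 log2 in the other direction. The members and lists were chosen with earlier results of these data known. Alternatives covered scaling, floor, probe set choice, single designs and left-out arrays. Scaling to hybridisation controls was added after seeing the data. Python 3.11.15, pandas 2.3.3, numpy 2.4.6, scipy 1.17.1, matplotlib 3.10.9, R 4.3.3 and limma 3.58.1 were used.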

Additional observations from a re-analysis of the deposited data

Results flagged for a closer look

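Probe sets with no gene name were left out of the comparisons above, and some of them were higher in whole testis. On the first design 30 of 778 measured unnamed probe sets (3.86%) were at least 4-fold higher in whole testis and 55 (7.07%) were at least 4-fold lower. On the second design 52 of 4075 (1.28%) were higher and 34 (0.834%) lower. An example from each design had 4841 in whole testis and 39.3 in the somatic mix on the first, and 3708 in whole testis and 61.6 in the somatic mix on the second, where the pachytene fraction had 11119.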

How the results depend on the processing

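Counts of genes at least 4-fold higher and lower in whole testis were 1082 and 855. They were 1157 and 966 after quantile normalization, 1219 and 685 after median scaling, 1288 and 666 with values as deposited, 786 and 565 with the floor at the 60th percentile, 633 and 668 on the first design alone and 508 and 261 on the second design alone. Median scaling, deposited values and the second design alone moved the median difference by 0.17, 0.22 and −0.14, and put 64.02%, 65.9% and 66.1% of calls in the higher direction, against 55.9%, while the first design alone put 48.7% there. Ptprc turned to 0.0024 and Top2a to −0.47 both with plain probe sets only and on the second design alone. On the second design alone Brdt turned to −0.17, Catsper2 to −0.11 and the spermatogonial median to −0.0135. The causes were not tested.

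limma called 46 of the 100 shared probe sets, and 20 with deposited values, where lower calls fell to 3, against 25. Leaving out 1 array gave 37 to 49, with the lowest count without whole testis replicate 2. With the replicate number (the design) as a block it called 52. Deviations of same-numbered arrays correlated at −0.02 to 0.57 over 10 pairs of groups, the highest being whole testis with somatic mix. Not every pair was above 0.1, and the number is the array design, so it was not taken to pair the samples. Arrays of 1 design share probes and scaling.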

Other observations

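Gene families read by their symbols, a grouping chosen after the values were seen, gave further groups. Those named here were picked from families with high or low medians, and others of similar rank, such as Efcab (5 of 9 called higher, median 2.02), are not described. Of all measured genes 7.22% were called higher and 5.7% lower. Of 22 measured Cfap genes, which encode proteins of cilia and flagella, 16 were called higher in whole testis, with a median of 3.35. Of 14 Ift genes, which encode intraflagellar transport proteins, 10 were called higher, with a median of 2.59. Centrosomal Cep genes had 14 of 33 called higher and a median of 1.73. Nucleoporin Nup genes had 5 of 18 called higher and a median of 1.61. In the lower direction 20 of 36 measured Krtap genes, which encode hair keratin-associated proteins, and 12 of 40 keratin genes were called, with medians of −2.24 and −1.53. A keratin gene was also called higher, 1 of the 40.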
